A study of Homo sapiens with 12 samples.

Results

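The genes described here code for 40 proteins of central carbon metabolism, out of 19460 genes in the RNA table. They were chosen by symbol for their place in 3 pathways, with earlier results of these data known. Glycolysis is represented by 18 genes, from the glucose transporter SLC2A1 to lactate dehydrogenase. The pentose phosphate pathway is represented by 6 genes, and the link from pyruvate into the tricarboxylic acid (TCA) cycle, with the cycle itself, by 16 genes. These 16 are called the TCA group here. Among them ACO1, IDH1 and MDH1 code for cytosolic forms, which lie outside the mitochondrial cycle. The measurements come from wild-type T-47D cells, an oestrogen receptor-positive luminal breast cancer cell line, grown in serum-containing medium. Cells received DMSO (the solvent control) or 1 µM palbociclib, which blocks the cell cycle kinases CDK4 and CDK6, for 24 h. Each treatment had 3 biological replicates by poly(A) RNA sequencing and, in separate cultures, 3 by ATAC-seq, which maps open chromatin by transposase insertion. All libraries come from 1 cell line, so the spread between replicates is that of cultures of this line.

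Glycolysis splits glucose into pyruvate in the cytosol and yields ATP and NADH, and lactate dehydrogenase regenerates NAD from the NADH. The pentose phosphate pathway branches off at glucose 6-phosphate and supplies NADPH and the ribose of nucleotides. Pyruvate that enters mitochondria is converted by the pyruvate dehydrogenase complex to acetyl-CoA, which the TCA cycle oxidises while supplying building blocks for lipids, amino acids and nucleotides. Several of the reactions are carried out by isozymes from separate genes, which differ in regulation or in compartment, and proliferating tumour cells are known for a high glycolytic flux.

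The 9 luminal epithelial markers were all expressed. Their FPKM (fragments scaled to transcript length and sequencing depth) summed to 5593 to 6118 in DMSO and 7516 to 8296 in palbociclib libraries. By the limma test described below 8 of them rose, beside 20.9% of all genes tested as higher. EPCAM did not pass (log2 change -0.14; limma adjusted p = 0.0544), while the authors' deposited DESeq2 table has it as lower (adjusted p = 0.0223). Basal markers summed to at most 0.113 FPKM and leukocyte markers to at most 0.173 FPKM. The 3 endothelial markers, PECAM1, VWF and CDH5, were not in the table. Of the 5 fibroblast markers, DCN was not in the table. The other 4 summed to 23.9 to 25.3 FPKM in DMSO and 24.8 to 27.1 FPKM in palbociclib libraries. Most of that sum was COL1A1, at 23.7 ± 0.582 and 25.1 ± 1.17 FPKM (SD, n = 3). The 4 proliferation markers fell from a summed 196 to 203 FPKM to 8.06 to 8.20 FPKM, and their part in the results below was not tested. The FPKM columns summed to 5.60% more in palbociclib than in DMSO libraries, and these totals did not overlap. RNA depth per library is unknown from FPKM. The authors' deposited table gives mean normalized counts of 532 (ENO2) to 93898 (PKM) for the members other than LDHB, which had 16.0. ATAC counts in peaks totalled 12830062 to 18250496 per library.

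Central carbon genes responded to 24 h of palbociclib gene by gene, with both directions present in glycolysis and in the TCA group. Of the 40 genes, 39 passed the filter of a mean of 0.5 FPKM. By limma on log2(FPKM + 1) with Benjamini-Hochberg adjustment over all 15869 genes tested, 7 of these rose, 13 fell and 19 did not pass an adjusted p of 0.05. Of all genes tested, 43.7% passed, 20.9% as higher and 22.9% as lower, and 51.3% of the tested members did, so being called was common among all genes. The median log2 change of the members was -0.05, beside 0.00 for all genes tested. A move of 0.2 or more on the log2 scale was seen in 12 members. That was 30.8% of those tested, a smaller share than the 42.1% of all genes tested. The call split depends on scaling: with each library set to the same FPKM total, 3 members were higher and 22 lower, and with quantile normalization 12 were higher and 13 lower. In bulk RNA, fewer cells of a type and less RNA per cell cannot be told apart. The authors' deposited table, from DESeq2, calls 8 members higher and 13 lower, beside 38.2% of its 19080 genes with an adjusted p, 17.9% as higher and 20.3% as lower. The library values of 26 tested members did not overlap between the groups, as did those of 54.7% of all genes tested.

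The pathways differed in how far their members moved. In glycolysis 5 genes rose, 6 fell and 6 did not pass among 17 tested, with log2 changes from -1.11 to 0.38. No pentose phosphate gene of the 6 passed limma's adjusted p, 1 had an unadjusted p under 0.05, and the authors' deposited DESeq2 table calls 0. Their log2 changes lay between -0.13 and 0.09. In the TCA group 2 genes rose, 7 fell and 7 did not pass among 16, with log2 changes from -0.32 to 0.18. The 2 that rose were IDH1, a cytosolic form, and PDHB, of the pyruvate dehydrogenase complex. Both calls were lost with equal FPKM totals. The median absolute log2 change was 0.17 in glycolysis, 0.07 in the pentose phosphate pathway and 0.12 in the TCA group, beside 0.16 over all genes tested. The pathway medians of the signed change were 0.01, -0.05 and -0.06, in the same order. The glycolysis median turned to -0.07 with equal FPKM totals and to -0.01 with quantile normalization.

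**Figure D1:**
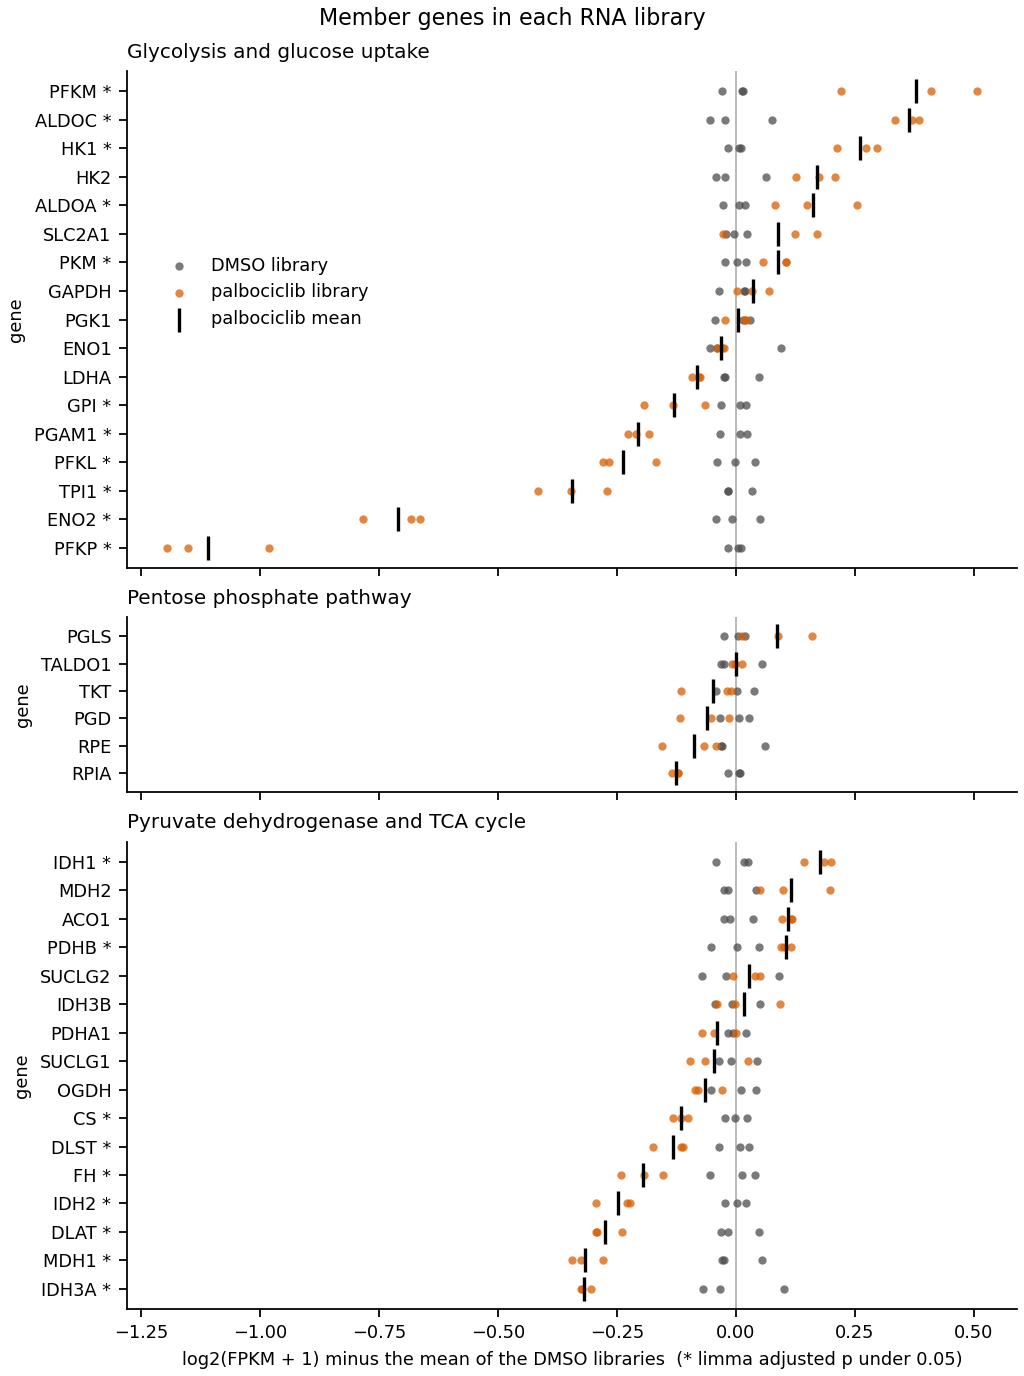
Each row is a member gene and each point a library, plotted as log2(FPKM + 1) minus the mean of the 3 DMSO libraries. Grey points are DMSO, orange points palbociclib, the black tick is the palbociclib mean and an asterisk marks a limma adjusted p under 0.05. PFKP and ENO2 lie farthest to the left at -1.11 and -0.71, while all 6 pentose phosphate genes stay between -0.13 and 0.09.

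Summed over members, glycolytic RNA was 3752, 3830 and 3897 FPKM in DMSO and 3873, 3974 and 3776 FPKM in palbociclib libraries. These groups overlapped. Pentose phosphate RNA summed to 409, 401 and 419 FPKM in DMSO and to 407, 407 and 392 FPKM with palbociclib, again overlapping. TCA RNA summed to 1306, 1282 and 1319 FPKM in DMSO and to 1224, 1244 and 1200 FPKM with palbociclib. Every palbociclib library was below every DMSO library for the TCA sum, and the mean was 6.11% lower. That sum includes the cytosolic forms ACO1, IDH1 and MDH1. Of these, MDH1 fell from a mean of 130 to 104 FPKM, while ACO1 and IDH1 had higher means with palbociclib. As a share of each library's FPKM total, all 3 sums were lower with palbociclib without overlap, by 4.11%, 7.01% and 11.1% for glycolysis, pentose phosphate and TCA genes. Those shares move with the larger FPKM totals of the palbociclib libraries.

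**Figure D2:**
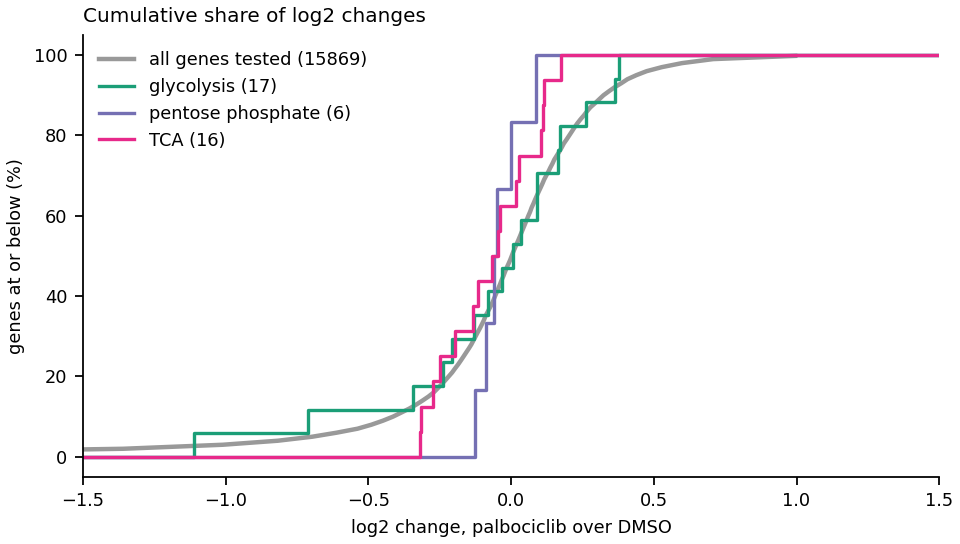
The cumulative share of genes (vertical axis, %) is drawn against the log2 change of palbociclib over DMSO, for all 15869 genes tested in grey and for the 3 pathways in colour. The pentose phosphate line rises steeply within -0.13 to 0.09, the TCA line starts at -0.32, and the glycolysis line follows the grey line more closely, with PFKP at -1.11.

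Among the entry steps of glycolysis, SLC2A1, the widespread glucose transporter GLUT1, was at 15.0, 14.8 and 15.3 FPKM in DMSO and 17.1, 16.5 and 14.7 FPKM with palbociclib. The groups overlapped (log2 change 0.09, SE 0.06; limma adjusted p = 0.237). Hexokinases trap glucose as glucose 6-phosphate, and HK1 was at 79.9, 78.6 and 80.1 FPKM in DMSO against 96.3, 97.9 and 92.3 FPKM. All 3 palbociclib libraries lay above all DMSO libraries, and HK1 rose by 0.26 on the log2 scale (SE 0.03; limma adjusted p = 0.000311). HK2, the hexokinase often raised in tumours, was a minor form at 2.03, 2.07 and 2.26 FPKM in DMSO and 2.52, 2.60 and 2.41 FPKM with palbociclib. Its groups did not overlap, but it did not pass the limma test (log2 change 0.17, SE 0.07; adjusted p = 0.0771), while in the authors' deposited table it had an adjusted p of 0.0153. HK2 made up 2.60% ± 0.136 (SD, n = 3) of hexokinase RNA in DMSO and 2.56% ± 0.0270 with palbociclib, and an exact permutation test gave p = 0.8. GPI, which isomerises glucose 6-phosphate to fructose 6-phosphate, was 57.8, 60.0 and 59.5 FPKM in DMSO and 53.8, 56.5 and 51.6 FPKM with palbociclib. It fell by 0.13 on the log2 scale (SE 0.04; limma adjusted p = 0.0292), a call lost when DMSO replicate 2 or 3 or palbociclib replicate 1 or 3 was left out, with quantile normalization and with no intensity trend.

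Phosphofructokinase, the committed and most regulated step of glycolysis, showed the largest change of the 40 genes, in opposite directions for its isozymes. PFKP, the platelet-type subunit (chr10:3067548-3136805, GRCh38.p14), was at 38.8, 39.4 and 39.6 FPKM in DMSO and at 16.6, 19.4 and 17.1 FPKM in palbociclib libraries. The palbociclib level was less than the lowest DMSO value in all 3 libraries and 54.9% lower on average (log2 change -1.11, SE 0.06; limma adjusted p = 1.28e-06). PFKM, the muscle-type subunit (chr12:48105353-48146404), was at 45.2, 46.6 and 46.7 FPKM in DMSO and at 66.0, 61.7 and 53.9 FPKM with palbociclib. All palbociclib libraries were above all DMSO libraries, with replicate 3 the nearest to them, and the mean was 31.1% higher (log2 change 0.38, SE 0.07; limma adjusted p = 0.00198). PFKL, the liver-type subunit (chr21:44300053-44327373), went from 43.1, 44.2 and 45.6 FPKM to 36.6, 39.3 and 36.3 FPKM. It fell by 0.24 on the log2 scale (SE 0.04; limma adjusted p = 0.00207), with no overlap.

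In DMSO the 3 phosphofructokinase genes contributed near equal shares of the summed FPKM, and with palbociclib PFKM RNA became the main form. The PFKM share was 35.6%, 35.8% and 35.4% in DMSO and 55.4%, 51.3% and 50.2% with palbociclib, a rise of the mean by 16.7 percentage points. The PFKP share was 30.6%, 30.3% and 30.0% in DMSO and 13.9%, 16.1% and 16.0% with palbociclib, and its mean fell by 15.0 percentage points. The PFKL share was 34.1% ± 0.383 and 32.4% ± 1.56 (SD, n = 3). For each of the 3 shares the exact two-sided permutation test gave p = 0.1, the smallest that 3 against 3 libraries allow. The ratio of PFKM to PFKP was 1.17 ± 0.00946 in DMSO and 3.44 ± 0.469 with palbociclib (SD, n = 3). Summed phosphofructokinase RNA was 127, 130 and 132 FPKM in DMSO and 119, 120 and 107 FPKM with palbociclib, 10.9% lower with no overlap.

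**Figure D3:**
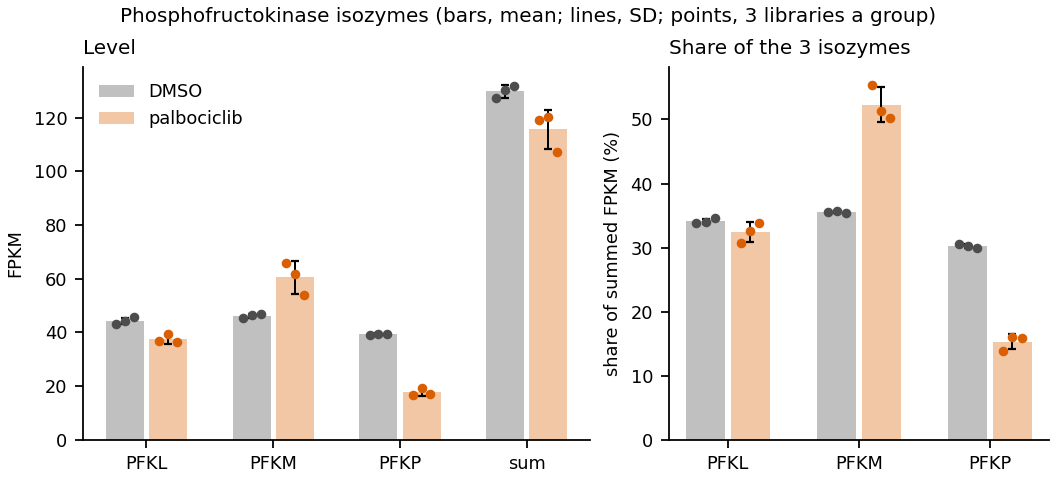
The left panel shows FPKM of PFKL, PFKM, PFKP and their sum, the right panel each isozyme's share of that sum (%), with bars for means, lines for SD and points for the 3 libraries of each treatment. PFKM rises from a share of 35.6% to 52.3% and PFKP falls from 30.3% to 15.3%.

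Below phosphofructokinase, aldolase splits fructose 1,6-bisphosphate. ALDOA, the main aldolase in these cells, was at 650, 671 and 666 FPKM in DMSO and 735, 791 and 702 FPKM with palbociclib. It rose by 0.16 on the log2 scale without overlap (SE 0.04; limma adjusted p = 0.0178), but the call was lost with equal FPKM totals, with no intensity trend in limma and without DMSO replicate 1. ALDOC, the brain-type aldolase, was at 19.3, 21.3 and 19.8 FPKM in DMSO and 25.6, 26.6 and 26.3 FPKM with palbociclib. It rose by 0.36 (SE 0.04; limma adjusted p = 0.000297), and its share of aldolase RNA went from 2.95% ± 0.106 to 3.41% ± 0.184 (SD, n = 3; exact p = 0.1). TPI1, which interconverts the triose phosphates, was at 99.5, 103 and 99.4 FPKM in DMSO and 79.0, 83.2 and 75.2 FPKM with palbociclib. It fell by 0.34 on the log2 scale with no overlap (SE 0.04; limma adjusted p = 0.000251).

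The enzymes of the NADH-yielding and first ATP-yielding steps that follow did not pass the test. GAPDH, the most abundant member by FPKM in DMSO, was at 843, 876 and 875 FPKM there and 886, 907 and 867 FPKM with palbociclib, and the groups overlapped. Its log2 change was 0.04 (limma adjusted p = 0.404), turning to -0.04 with equal FPKM totals and to -0.01 with quantile normalization. PGK1 had a log2 change of 0.01 (limma adjusted p = 0.907), which turned to -0.07 with equal FPKM totals. PGAM1, phosphoglycerate mutase, was at 306, 315 and 318 FPKM in DMSO and 267, 275 and 270 FPKM with palbociclib, and fell by 0.21 on the log2 scale (SE 0.03; limma adjusted p = 0.000629).

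Enolase RNA came almost wholly from ENO1, at 496, 491 and 545 FPKM in DMSO and 496, 501 and 500 FPKM with palbociclib. The ENO1 groups overlapped, with a log2 change of -0.03 (limma adjusted p = 0.585). ENO2, the neuron-type enolase (chr12:6914580-6923697), was at 5.00, 4.86 and 5.25 FPKM in DMSO and 2.76, 2.81 and 2.51 FPKM with palbociclib. It fell by 0.71 on the log2 scale (SE 0.07; limma adjusted p = 5.11e-05). Its share of the summed ENO1 and ENO2 RNA went from 0.978% ± 0.0222 to 0.537% ± 0.0327 (SD, n = 3; exact p = 0.1). A large relative change of ENO2 therefore concerned less than 1% of that sum. ENO3, which is not a member and is left out of the share, was at a higher level than ENO2 and rose. It went from 9.49 ± 1.27 to 11.7 ± 0.446 FPKM (SD, n = 3; log2 change 0.28; limma adjusted p = 0.0293).

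At the end of the pathway, PKM, pyruvate kinase, was at 581, 592 and 599 FPKM in DMSO and 635, 635 and 614 FPKM with palbociclib. It rose by 0.09 on the log2 scale (SE 0.03; limma adjusted p = 0.0378), with the adjusted p at 0.05 or more in 8 of 13 alternatives. LDHA, which reduces pyruvate to lactate, was at 339, 338 and 356 FPKM in DMSO and 326, 327 and 323 FPKM with palbociclib. Its groups did not overlap, but the log2 change of -0.08 did not pass (SE 0.03; limma adjusted p = 0.0613). LDHA did pass as lower with equal FPKM totals (log2 change -0.16; limma adjusted p = 0.00120). With quantile normalization it also passed (log2 change -0.08; limma adjusted p = 0.0361). LDHB, the heart-type subunit, lay under the filter at 0.226, 0.181 and 0.202 FPKM in DMSO and 0.237, 0.181 and 0.150 FPKM with palbociclib. LDHA thus made up 99.9% of lactate dehydrogenase RNA in both groups, and the LDHB share of 0.0590% ± 0.00672 and 0.0581% ± 0.0133 (SD, n = 3) gave an exact p = 0.9.

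In the oxidative branch of the pentose phosphate pathway, PGLS, 6-phosphogluconolactonase, was at 38.7, 39.5 and 39.9 FPKM in DMSO and 44.1, 41.9 and 39.7 FPKM with palbociclib. The groups overlapped (log2 change 0.09, SE 0.04; limma adjusted p = 0.137). PGD, which releases NADPH and ribulose 5-phosphate, changed by -0.06 (limma adjusted p = 0.204). In the non-oxidative branch, RPIA, ribose-5-phosphate isomerase, was at 7.17, 7.04 and 7.18 FPKM in DMSO and 6.47, 6.48 and 6.41 FPKM with palbociclib. Its palbociclib libraries were all below its DMSO libraries, yet the log2 change of -0.13 missed the threshold (SE 0.05; limma adjusted p = 0.0676). RPE, the epimerase, changed by -0.09 (limma adjusted p = 0.156). In the same branch, transketolase (TKT) changed by -0.05 (limma adjusted p = 0.356) and transaldolase (TALDO1) by 0.00 (limma adjusted p = 0.989). Of these 6 genes, PGD, RPIA, RPE and TKT passed as lower once libraries were set to the same FPKM total. A p that misses the threshold does not show that these levels were equal.

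In the pyruvate dehydrogenase complex the subunits did not move as a unit. DLAT, the E2 core (chr11:112025408-112064404), was at 54.3, 51.3 and 51.9 FPKM in DMSO and 44.3, 42.7 and 42.7 FPKM with palbociclib. It fell by 0.27 on the log2 scale with no overlap (SE 0.04; limma adjusted p = 0.000405). PDHB, the E1 beta subunit, was at 64.2, 61.7 and 66.3 FPKM in DMSO and 68.5, 68.8 and 69.5 FPKM with palbociclib. It rose by 0.10 (SE 0.03; limma adjusted p = 0.0389), a call lost in 8 of 13 alternatives, the authors' deposited table (adjusted p = 0.0514) among them. PDHA1, the E1 alpha subunit, overlapped between groups with a log2 change of -0.04 (limma adjusted p = 0.340).

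At the entry of the cycle CS, citrate synthase, was at 185, 183 and 188 FPKM in DMSO and 171, 173 and 169 FPKM with palbociclib. It fell by 0.12 on the log2 scale (SE 0.03; limma adjusted p = 0.00956), a call lost with no intensity trend in limma. ACO1, the cytosolic aconitase that also acts as an iron sensor, was at 11.3, 11.2 and 11.7 FPKM and 12.3, 12.5 and 12.4 FPKM, without overlap. Its log2 change of 0.11 missed the threshold (limma adjusted p = 0.0690).

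Isocitrate dehydrogenases moved in both directions. IDH1, the cytosolic NADP-dependent form, was at 25.1, 24.1 and 25.3 FPKM in DMSO and 28.3, 28.7 and 27.5 FPKM with palbociclib. It rose by 0.18 on the log2 scale (SE 0.04; limma adjusted p = 0.00568), a call lost with equal FPKM totals. IDH2, the mitochondrial NADP-dependent form (chr15:90083045-90102468), was at 167, 165 and 162 FPKM in DMSO and 141, 141 and 135 FPKM with palbociclib. It fell by 0.25 with no overlap (SE 0.03; limma adjusted p = 0.000330). The IDH1 share of the pair went from 13.1% ± 0.377 to 16.9% ± 0.110 (SD, n = 3; exact p = 0.1). IDH3A, the catalytic subunit of the NAD-dependent enzyme of the cycle (chr15:78149362-78171945), was at 36.2, 32.9 and 32.1 FPKM in DMSO and 26.7, 26.7 and 27.1 FPKM with palbociclib. It fell by 0.32 (SE 0.05; limma adjusted p = 0.000919). Its partner IDH3B overlapped between groups, with a log2 change of 0.02 (limma adjusted p = 0.772) that turned to -0.06 with equal FPKM totals. The third subunit, IDH3G, which is not a member, rose by 0.21 (limma adjusted p = 0.0112), a call lost with equal FPKM totals.

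Further round the cycle, OGDH, the E1 subunit of oxoglutarate dehydrogenase, changed by -0.07 (limma adjusted p = 0.208), and by 0.00 with quantile normalization. DLST, its E2 core, was at 64.2, 62.3 and 65.0 FPKM in DMSO and 58.9, 59.0 and 56.5 FPKM with palbociclib. It fell by 0.13 on the log2 scale (SE 0.03; limma adjusted p = 0.0128). The succinyl-CoA ligase subunits SUCLG1 and SUCLG2 changed by -0.05 and 0.03 (limma adjusted p = 0.412 and 0.668), and SUCLG2 turned to -0.05 with equal FPKM totals. FH, fumarase, was at 87.2, 81.6 and 85.5 FPKM in DMSO and 76.1, 74.0 and 71.5 FPKM with palbociclib. It fell by 0.20 with no overlap (SE 0.04; limma adjusted p = 0.00342).

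The malate dehydrogenases, which exchange reducing power between cytosol and mitochondria, separated by compartment. MDH1, the cytosolic form (chr2:63588963-63607197), was at 128, 127 and 135 FPKM in DMSO and 107, 104 and 102 FPKM with palbociclib. It fell by 0.32 on the log2 scale with no overlap (SE 0.03; limma adjusted p = 0.000156). MDH2, the mitochondrial form, was at 176, 177 and 185 FPKM in DMSO and 186, 206 and 192 FPKM with palbociclib. Its palbociclib libraries were all above its DMSO libraries, but its log2 change of 0.12 just missed the threshold (SE 0.04; limma adjusted p = 0.0530), while in the authors' deposited table it had an adjusted p of 0.0284. The MDH1 share of the pair went from 42.0% ± 0.227 to 34.9% ± 1.55 (SD, n = 3; exact p = 0.1). In the isocitrate pair the cytosolic form rose and the mitochondrial form fell, so the cytosolic share went up there and down in the malate pair.

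Other genes of the same pathways moved in both directions too. Of 72 further genes listed for transport, isozymes, regulators and side reactions, 56 were in the table and 53 were tested, of which 19 rose, 14 fell and 20 did not pass, beside 20.9% of all genes tested as higher and 22.9% as lower. With equal FPKM totals these counts were 13 and 18, and with quantile normalization 22 and 10. Their median log2 change was 0.00. LDHD, a mitochondrial D-lactate dehydrogenase, was at 17.8, 16.4 and 15.8 FPKM in DMSO and 33.7, 32.5 and 29.5 FPKM with palbociclib. It had the largest rise of the 53 (log2 change 0.90, SE 0.06; limma adjusted p = 8.53e-06). GPD2, the mitochondrial glycerol 3-phosphate dehydrogenase, was at 11.4, 11.2 and 10.8 FPKM in DMSO and 5.57, 4.22 and 6.38 FPKM with palbociclib, and fell by 0.94 (SE 0.11; limma adjusted p = 0.000254). Its cytosolic partner GPD1 rose by 0.77 at a low level, from 2.06 ± 0.370 to 4.19 ± 0.432 FPKM (SD, n = 3; limma adjusted p = 0.000537).

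Around the phosphofructokinase step, FBP1, the gluconeogenic phosphatase that reverses it, was at 39.4, 37.3 and 39.5 FPKM in DMSO and 59.6, 58.3 and 55.6 FPKM with palbociclib. It rose by 0.57 on the log2 scale with no overlap (SE 0.04; limma adjusted p = 9.97e-06). PFKFB3, which makes the phosphofructokinase activator fructose 2,6-bisphosphate, was at 54.2, 55.8 and 53.8 FPKM in DMSO and 76.8, 78.0 and 77.7 FPKM with palbociclib. It rose by 0.50 (SE 0.03; limma adjusted p = 3.90e-06). Of its paralogues, named after their values were seen, PFKFB4 rose by 0.34 (limma adjusted p = 0.00239). PFKFB2 fell by 0.15 (limma adjusted p = 0.0425), a call lost with no filter on low values, with quantile normalization and without replicate 1 or 2 of either group.

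Among the other genes that fell, PCK2, the mitochondrial phosphoenolpyruvate carboxykinase, went from 23.3 ± 0.215 to 17.7 ± 0.942 FPKM (log2 change -0.38; limma adjusted p = 0.000250). GOT1, the cytosolic aspartate aminotransferase that works with MDH1 in the malate-aspartate shuttle, went from 74.9 ± 3.02 to 57.6 ± 1.19 FPKM (SD, n = 3; log2 change -0.37; limma adjusted p = 9.67e-05). SLC16A1, the lactate transporter MCT1, was low and went from 2.27 ± 0.180 to 1.54 ± 0.225 FPKM (log2 change -0.37; limma adjusted p = 0.0102).

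**Figure D4:**
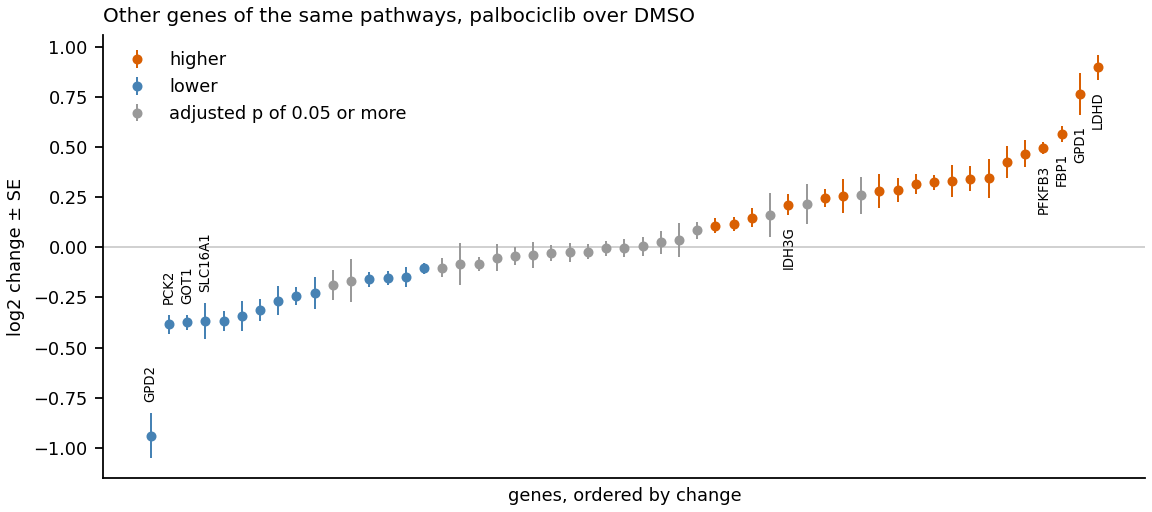
The log2 change of palbociclib over DMSO (points) with its SE (lines) is drawn for the 53 tested pathway genes outside the 40, ordered by change, with orange for higher, blue for lower and grey for a limma adjusted p of 0.05 or more. Names mark genes whose values are given in the text, with GPD2 at -0.94 and LDHD at 0.90 at the ends of the range.

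Genes that code for known regulators of these pathways were read from the same fit. Of 16 transcription factors, 5 rose, 3 fell and 8 did not pass, beside 43.7% of all genes tested that passed. The 5 became 1 with equal FPKM totals and without DMSO replicate 1 or 2, 2 without palbociclib replicate 1 or 2, and 3 without DMSO replicate 3. NRF1, a driver of mitochondrial gene transcription, fell by 0.37 (limma adjusted p = 0.00284). HIF1A, the oxygen-regulated activator of glycolytic genes, fell by 0.16 (limma adjusted p = 0.00936), a call lost with quantile normalization, and its relative EPAS1 rose by 0.21 (limma adjusted p = 0.00505). RNA of HIF1A does not measure its protein, which is controlled by degradation.

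Of 13 genes listed as hypoxia-inducible factor (HIF) targets outside glycolysis, 12 were tested, 6 rose and 0 fell by limma, with 0 falling also in the authors' deposited DESeq2 table, beside 20.9% of all genes tested as higher and 22.9% as lower by limma. With equal FPKM totals 4 of them rose. DDIT4, an inhibitor of mTOR signalling, went from 14.6, 15.6 and 15.4 FPKM to 31.5, 34.5 and 32.1 FPKM and rose by 1.05 (SE 0.05; limma adjusted p = 6.08e-07). ADM, the peptide adrenomedullin, went from 19.5 ± 0.556 to 32.5 ± 1.19 FPKM (SD, n = 3; log2 change 0.71; limma adjusted p = 3.65e-06). VEGFA, an angiogenic factor, rose by 0.31 (limma adjusted p = 0.00168), and ANKRD37 by 0.36 (limma adjusted p = 0.0303), the latter not called with equal FPKM totals, in the authors' deposited table, or when DMSO replicate 1 or 3 or palbociclib replicate 1 or 2 was left out. BNIP3, NDRG1, EGLN1, EGLN3, KDM3A and BNIP3L did not pass.

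Of 7 targets of NFE2L2, the antioxidant regulator that also drives NADPH-producing enzymes, 1 rose and 4 fell, beside 20.9% of all genes tested as higher and 22.9% as lower. With quantile normalization 2 of the 7 fell. HMOX1, haem oxygenase, went from 6.16 ± 0.345 to 3.90 ± 0.228 FPKM (SD, n = 3; log2 change -0.55; limma adjusted p = 0.000254). SLC7A11, the cystine importer, was near 1 FPKM and fell by 0.49 (limma adjusted p = 0.00100). NQO1 rose by 0.15 (limma adjusted p = 0.0156), a call lost with equal FPKM totals, with no intensity trend and without DMSO replicate 2 or palbociclib replicate 1 or 2. The pentose phosphate members known to respond to this factor, PGD, TKT and TALDO1, did not pass.

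Accessibility was compared at peaks within 1 kb of a RefSeq start of a member. Such a peak was in the authors' peak table for 14 of the 40 genes, with 16 peaks in all, and the other 26, PFKP, GAPDH and ENO2 among them, were not analysed here. By the edgeR quasi-likelihood test adjusted over all 38121 peaks, 0 of the 16 peaks rose and 3 fell. Of all peaks 11.9% passed, 5.41% as higher and 6.46% as lower, and of the 6411 peaks within 1 kb of any RefSeq start 12.9% passed, 1.86% as higher and 11.1% as lower. The median log2 change of the member peaks was -0.05, beside -0.04 for all peaks near a start and 0.00 for all peaks. Counts of 5 member peaks did not overlap between groups, as for 28.3% of all peaks.

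The peak over the start of PFKM (chr12:48105613-48106608) had 73.3, 75.8 and 74.3 CPM (counts scaled to the TMM-adjusted library total) in DMSO and 66.1, 64.7 and 57.9 with palbociclib. All palbociclib libraries were below all DMSO libraries, and it fell by 0.24 on the log2 scale (edgeR adjusted p = 0.00361), in each alternative run. PFKM RNA rose in the same comparison of treatments, by 0.38. The peak at the start of PFKL (chr21:44299509-44300127) had 33.2, 38.8 and 38.9 CPM in DMSO and 31.4, 32.0 and 30.8 with palbociclib, and fell by 0.24 (edgeR adjusted p = 0.0337). That call was lost with library totals, with an offset smoothed on abundance, with DESeq2 and without DMSO replicate 2 or 3 or palbociclib replicate 1 or 3 (adjusted p 0.0550 to 0.160). A second PFKL peak, 313 bases into the gene, was at 31.6 ± 0.516 and 33.2 ± 1.79 CPM (SD, n = 3; log2 change 0.08, edgeR adjusted p = 0.594). The peak over the start of DLST (chr14:74881488-74882448) had 91.9, 91.0 and 98.9 CPM in DMSO and 84.2, 83.0 and 82.0 with palbociclib. It fell by 0.18 (edgeR adjusted p = 0.0231), a call lost with the smoothed offset and without DMSO replicate 3 or palbociclib replicate 1 or 2 (adjusted p 0.0512 to 0.169). PFKL and DLST RNA fell as well.

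**Figure D5:**
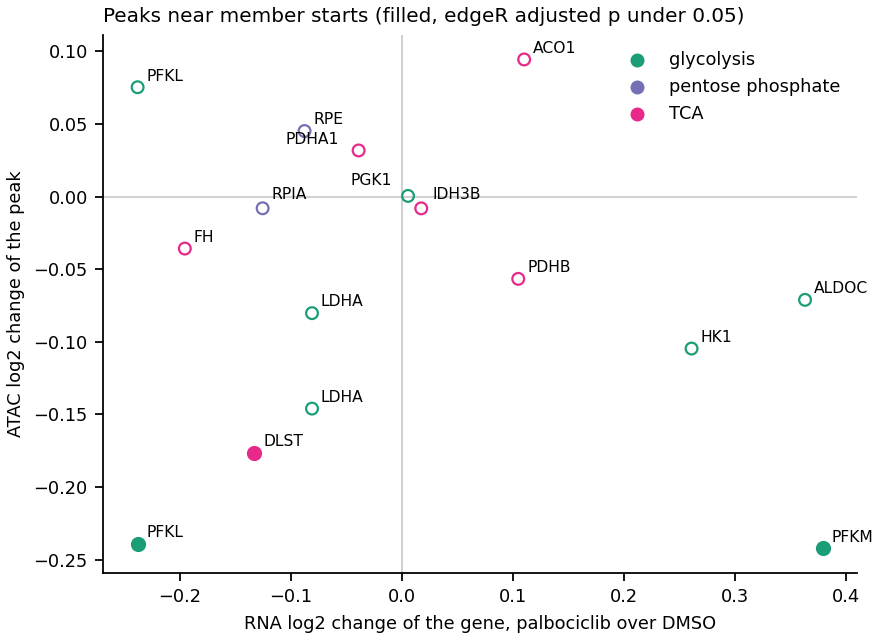
Each point is a peak within 1 kb of a member's start, with the gene's RNA log2 change on the horizontal axis and the peak's ATAC log2 change on the vertical axis, both palbociclib over DMSO. Filled points passed the edgeR test: PFKL and DLST lie at lower left, and PFKM lies at lower right with RNA at 0.38 and accessibility at -0.24.

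The remaining peaks did not pass. At LDHA the peak at its downstream start (chr11:18395633-18396513) had 97.8, 92.4 and 92.5 CPM in DMSO and 85.3, 83.4 and 86.6 with palbociclib, without overlap (log2 change -0.15, edgeR adjusted p = 0.0643). The peak at its upstream start (chr11:18394116-18394961) changed by -0.08 (edgeR adjusted p = 0.419). ALDOC and HK1, whose RNA rose, had peaks that changed by -0.07 and -0.10 (edgeR adjusted p = 0.401 and 0.328). The HK1 peak lay at -717 bases from a start inside the gene (chr10:69334614). The other HK1 starts had no peak within 1 kb. FH, whose RNA fell, had a peak at 123 ± 3.70 and 120 ± 7.11 CPM (SD, n = 3; log2 change -0.04, edgeR adjusted p = 0.711). PGK1, whose RNA did not pass, had a peak that changed by 0.00 (edgeR adjusted p = 0.998).

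The promoters where accessibility fell are printed because RNA and accessibility can be set side by side there, and that of LDHA because it holds the most HIF core matches of the 61 member windows. Windows run from 250 bases before a RefSeq start to 50 after it on GRCh38.p14, 5′ to 3′ on the gene's strand, in lower case. Capitals mark an E2F core (TTTCCCGC, TTTGGCGC or TTTCGCGC) in PFKM, PFKL and DLST and the HIF core (ACGTG) in LDHA, on either strand. All lie on the plus strand: PFKM at chr12:48105623-48105922, PFKL at chr21:44299803-44300102, DLST at chr14:74881666-74881965 and LDHA at chr11:18394313-18394612.
PFKM: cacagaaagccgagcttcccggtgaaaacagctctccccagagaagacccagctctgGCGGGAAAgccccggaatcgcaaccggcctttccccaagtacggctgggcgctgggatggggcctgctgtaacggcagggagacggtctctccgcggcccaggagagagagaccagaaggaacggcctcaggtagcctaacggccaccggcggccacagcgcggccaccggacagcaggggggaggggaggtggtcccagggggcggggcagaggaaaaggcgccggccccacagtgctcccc
PFKL: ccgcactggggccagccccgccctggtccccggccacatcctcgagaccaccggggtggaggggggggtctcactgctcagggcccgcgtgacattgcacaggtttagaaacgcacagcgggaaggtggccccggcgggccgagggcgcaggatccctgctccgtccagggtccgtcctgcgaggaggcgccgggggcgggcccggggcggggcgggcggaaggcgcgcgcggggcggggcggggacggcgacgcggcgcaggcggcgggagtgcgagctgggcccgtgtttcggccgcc
DLST: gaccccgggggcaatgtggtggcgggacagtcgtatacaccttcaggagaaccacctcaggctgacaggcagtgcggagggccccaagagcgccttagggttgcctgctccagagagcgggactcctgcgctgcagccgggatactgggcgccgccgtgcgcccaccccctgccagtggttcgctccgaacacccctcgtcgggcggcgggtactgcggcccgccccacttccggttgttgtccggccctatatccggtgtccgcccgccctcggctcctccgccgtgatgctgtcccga
LDHA: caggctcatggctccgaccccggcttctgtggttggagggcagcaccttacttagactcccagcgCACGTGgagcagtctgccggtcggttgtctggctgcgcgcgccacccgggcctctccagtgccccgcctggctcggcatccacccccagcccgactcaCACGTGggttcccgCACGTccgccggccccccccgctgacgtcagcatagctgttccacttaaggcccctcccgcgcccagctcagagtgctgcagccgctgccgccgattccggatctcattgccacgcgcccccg
The PFKM window lies inside the peak that fell and has 1 E2F core match, at position -193 from the start. The PFKL and DLST windows have none of these letters. In LDHA the core was matched at positions -185, -184, -87, -86 and -73, where neighbouring positions are the overlapping matches on the 2 strands of the palindrome CACGTG.

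RefSeq promoter windows matched 39 of the 40 genes, with 61 windows, and OGDH had no entry. The HIF core ACGTG, searched on both strands, was found in a window of 15 of the 39 genes (38.5%), beside 24.9% of 27305 genes with a window. The E-box CACGTG, which contains that core, was found for 6 genes (15.4%, beside 8.77%): ALDOA, ALDOC, GAPDH, HK2, LDHA and PDHB. An E2F core was found for 4 genes (10.3%, beside 3.30%): GAPDH, IDH3B, PDHA1 and PFKM. The NRF1 core GCGCATGC was found for LDHA alone (2.56%, beside 3.68%) and the NFE2L2 core TGACNNNGC for 9 genes (23.1%, beside 16.1%). Member windows had a median GC content of 66.7%, beside 58.7% over all windows, and genes with several windows have more chances of a match. Of the 4 genes with an E2F core, PFKM rose and the other 3 did not pass.

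Splicing was read from inclusion and skipping read counts per event. The files hold 474 events in member genes, of which 104 in 28 genes averaged 20 or more reads per library, with the rarer form making up 5% or more. By the edgeR quasi-likelihood test 0 of the 104 passed an adjusted p of 0.05 within their event type, 8 had an unadjusted p under 0.05, and the authors' deposited FDR called 2 of them, beside 3.82% of all events tested. Over all genes 0.35% of 37445 events passed, and 8.53% had an unadjusted p under 0.05, beside 7.69% of the member events.

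Pyruvate kinase RNA carries either exon 9 (isoform PKM1) or exon 10 (isoform PKM2), and the second is the main form in proliferating cells. The exon 9 form (exon at chr15:72203022-72203188, minus strand) had a level of 1.9%, 2.2% and 2.3% in DMSO and 1.9%, 1.6% and 1.7% with palbociclib, on 10874 to 17316 reads per library. PKM2, with the exon at chr15:72202454-72202620, was thus at 97.9% ± 0.208 and 98.3% ± 0.153 (SD, n = 3). The event lay under the minor-form filter, and without that filter the edgeR adjusted p was 0.184, beside an FDR of 0.491 in the authors' deposited table. The lowest adjusted p of the tested events, named after the values were seen, was that of a cassette exon of ALDOA at chr16:30065876-30065927. Its inclusion level was 38.4%, 38.8% and 37.5% in DMSO and 32.0%, 33.7% and 31.0% with palbociclib, without overlap (edgeR adjusted p = 0.0973, and 0.763 without the minor-form filter). A retained intron of IDH3A on 39 to 53 reads per library had levels of 37.2%, 31.7% and 44.2% in DMSO and 66.0%, 67.7% and 57.3% with palbociclib. Its edgeR adjusted p was 0.381, while the authors' deposited FDR was 0.0366.

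Many members have processed pseudogenes of near-identical sequence, and how the authors assigned shared reads is not given in the sources used here. RefSeq names 128 such pseudogenes for 21 of the 40 genes, 65 of them for GAPDH and 13 for PGAM1. The FPKM table lists 5 of them, with a highest level of 2.10 FPKM for a PGAM1 pseudogene. The values of the 21 genes carry this uncertainty.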

How the data were processed

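The data are poly(A) RNA-seq and ATAC-seq libraries of T-47D cells treated with DMSO or 1 µM palbociclib for 24 h, with 3 replicates per treatment and assay, grouped by GEO's labels. The 40 members and the gene lists were chosen with earlier results of these data known.

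FPKM per gene were deposited by the authors with 1 column per library. A second table deposited by the authors, from DESeq2, gives per gene a mean normalized count used here as a signal value, a log2 fold change, a Wald score and p-values. Splicing tables in the layout of rMATS, deposited by the authors, hold inclusion and skipping read counts, levels, a difference score and p-values with an FDR. The authors counted ATAC reads in 1 common peak set with featureCounts, per the file headers, and since the command does not ask for read pairs the counts were taken as reads. For RNA the submitters' processing notes name fastp 0.23.2, Salmon 1.10.2, STAR 2.7.10b, DESeq2 1.44.0 and GRCh38, and for ATAC Bowtie2 2.5.4-6, Picard 3.4.0-0 and MACS3 3.0.3-0. The counting strand, the annotation and how FPKM were derived are not given in the sources used here.

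RNA was compared with limma 3.58.1 (R 4.3.3) with an intensity trend on log2(FPKM + 1), over genes averaging 0.5 FPKM or more, so changes of low genes are understated. Benjamini-Hochberg adjustment ran over all genes tested, with a threshold of 0.05. Changes stand relative to the authors' scaling. Isozyme shares were percentages of the summed FPKM of the isozymes compared, which leave out ENO3, and were tested with exact two-sided permutation tests. Peaks were compared with the edgeR 4.0.16 quasi-likelihood test (TMM, filterByExpr). Splice events were tested with edgeR per event type, with library terms and the interaction of form and treatment. The main RNA and peak fits were tried on simulated data, and the splicing fit on simulated retained introns only. Promoter windows and gene coordinates were from RefSeq on GRCh38.p14.

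The text gives values in every library for the 8 glycolysis, 3 pentose phosphate and 6 TCA genes with the largest change among those called and for isozyme pairs, and for other lists the 4 genes with the largest change in each direction among those called with a mean of at least 1 FPKM. For splicing it names called events and the PKM exon pair. Values of some genes that this rule selects are not reported here. Other pseudocounts, filters, scalings, tests, a replicate term and leaving out each library were tried. Replicates with the same number did not deviate together: the correlations of their deviations were 0.11, -0.01 and 0.09 for RNA and 0.01, 0.04 and -0.03 for ATAC. No 2 libraries held identical values.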

Additional observations from a re-analysis of the deposited data

How the results depend on the processing

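Of the 20 members called by limma, 14 kept their direction and call in all 13 alternatives, and ALDOA, CS, GPI, IDH1, PDHB and PKM lost the call in at least 1. The cause of these losses was not tested. Of the 19 tested members not called, 0 kept both their sign and the missing call in all 13 alternatives. Equal FPKM totals left 3 glycolysis, 0 TCA and 3 of all members higher, and made 4 pentose phosphate and 22 of all members lower, with 1 transcription factor and 0 NFE2L2 targets higher. That scaling moved the median over all genes to -0.06 and the medians of glycolysis, pentose phosphate, TCA and all members to -0.073, -0.13, -0.13 and -0.12. Quantile normalization gave 1 pentose phosphate, 4 TCA and 12 of all members higher, 2 NFE2L2 targets lower, and medians of -0.017, -0.00523 and -0.00800 for pentose phosphate, TCA and all members. Without an intensity trend 1 pentose phosphate gene was lower, 1 TCA gene and 0 NFE2L2 targets higher. With FPKM + 1 the HK1 share changed by 0.22 and HK2 by -0.22 percentage points, and LDHA by -0.016 and LDHB by 0.016. The offset smoothed on abundance left 1 member peak lower. The authors' deposited FDR called 2 member splice events.

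Changes near 0 took the other sign with equal FPKM totals for GAPDH (-0.043), PGK1 (-0.073), TALDO1 (-0.077), IDH3B (-0.060) and SUCLG2 (-0.048), and with quantile normalization for GAPDH (-0.0094) and OGDH (0.0016). Leaving out 1 library at a time gave both signs for ENO1 (-0.059 to 0.016), SUCLG2 (-0.0076 to 0.074), IDH3B (-0.020 to 0.045), PGK1 (-0.017 to 0.021) and TALDO1 (-0.015 to 0.028).

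Leaving out each library in turn gave 3 to 6 glycolysis, 0 to 1 pentose phosphate, 1 to 2 TCA and 4 to 8 of all members higher, with 3 glycolysis and 4 of all members without DMSO replicate 1. It gave a pentose phosphate median of -0.073 to -0.024, 0 to 1 NFE2L2 targets and 1 to 4 transcription factors higher, and 1 to 3 member peaks lower.

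No label says that a replicate number marks a shared culture or day. With a replicate block the members gave 6 higher and 13 lower, the transcription factors 3 higher, and 1 member splice event, the ALDOA cassette exon, passed (edgeR adjusted p = 0.0067). Among the members the block changed the call of PKM alone, and outside them it ended that of PFKFB2 (limma adjusted p = 0.069).

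With 3 libraries a group the exact tests cannot go below 0.1. FPKM hide the depth of each RNA library, and LDHB was too low to test.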
